A study of Mus musculus with 12 samples.

Results

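The genes described here are 10 metabolic nuclear receptors of hepatocytes: Nr1h4, Nr0b2, Nr5a2, Nr1i2, Nr1i3, Ppara, Rxra, Nr1h3, Esrra and Nr3c1. They were chosen by name, with earlier results of these data known. All 10 were found among the 14188 genes of the protein-coding table, with 31 of its 29883 transcripts. The level of a gene is the summed FPKM, which is scaled by transcript length and by library, of the protein-coding transcripts listed for it. Liver RNA of 12 mice with CCl4-induced hepatic fibrosis was sequenced, 6 of the PZH group and 6 of the control group. Both groups were male mice of 6 weeks at the start, given as strain C57BL/8 in the sample labels and as C57BL/6J in the methods. Both received intraperitoneal CCl4, a solvent that injures hepatocytes, in corn oil at 10 µl per g body weight and 2 times a week. The PZH group also received PZH (Pien Tze Huang, a traditional Chinese medicine) into the stomach once a day at 0.25 mg per g body weight, and the control group received double distilled water in its place. All 12 livers were taken in week 8, and no mouse without CCl4 is among the RNA samples, so each difference below is between 2 groups of injured livers.

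Nuclear receptors are transcription factors that bind DNA and are switched by small lipophilic ligands, which lets a hepatocyte adjust its enzymes to the bile acids, drugs, fatty acids, sterols and hormones that reach it. Nr1h4 encodes FXR, the bile acid receptor, and Nr0b2 encodes SHP, a receptor without a DNA-binding domain that FXR induces and that represses bile acid synthesis, in part through LRH-1, the product of Nr5a2. Nr1i2 (PXR) and Nr1i3 (CAR) sense drugs and other foreign compounds, Ppara senses fatty acids, Nr1h3 (LXRα) senses oxysterols, and each of these and FXR binds DNA with RXRα, the product of Rxra, as partner. Esrra (ERRα) is an orphan receptor that drives mitochondrial genes together with PGC-1 coactivators, and Nr3c1 encodes the glucocorticoid receptor.

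Few low values were whole multiples of the smallest step of FPKM in their mouse, so depth could only be estimated. These steps, each seen in 22 to 42 values, put it at 26.8 to 42.8 M fragments per mouse, and the highest estimate was that of PZH mouse 1. This mouse stood apart from the other PZH mice. Its sum of FPKM was 370426, against 326060.0 to 346874 in the rest of its group and 325302 to 334194 in the control group. Its deviation from the other PZH mice on the log2(FPKM + 1) scale was lower where the GC content of the transcripts was higher, from a median of 0.15 in the fifth of genes with the lowest GC content to -0.33 in that with the highest. The Spearman correlation of this deviation with GC content was -0.412 across 10948 genes with a mean FPKM of at least 1, which are not independent replicates, and lay between -0.126 and 0.299 in the other 11 mice. Higher and lower follow the group names of the deposited columns. By a 2-fold change with unadjusted limma P under 0.05, 372 transcripts were higher and 594 lower in the PZH columns. After scaling each mouse by its median ratio to the others these were 549 higher and 386 lower. With the GC correction per mouse described below they were 602 and 353, so the balance of directions depended on the scale. The study, with a test it does not name, counts more upregulated than downregulated transcripts. It also reports higher serum albumin, ALT and AST, its liver function indices, in the control group at the last time point. Whether the column names belong to the right mice was not tested. Because of PZH mouse 1, some results are also given without PZH mouse 1, or with a GC correction per mouse that was chosen after this was seen.

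The tissue label, liver, was checked against 14 hepatocyte markers, and all 14 were above 0 in every mouse. Their summed level was 48529.7 to 64124 FPKM in the PZH mice (median 51763) and 31069 to 43795 in the control mice (median 37392), without overlap. The most abundant, Alb (albumin), made up 10.2% to 12.7% of all FPKM in the PZH mice, against 5.54% to 8.86% in the control group. In the limma fit 5 of the markers were higher in the PZH group and 1 was lower (9 and 0 after median-ratio scaling), with a median log2 fold change of 0.20 beside -0.11 over all genes. Alb (log2 fold change 0.68, adjusted p = 0.000697) and Ttr, which encodes the thyroxine carrier transthyretin (log2 fold change 0.68, adjusted p = 0.00311), rose. Apoa1, of high-density lipoprotein, had medians of 1902 and 1482 FPKM in the PZH and control groups (log2 fold change 0.28, adjusted p = 0.0833; called without PZH mouse 4 or control mouse 2 or 3, adjusted p down to 0.0399). Hnf4a, a nuclear receptor that maintains the hepatocyte programme, was the marker that fell (log2 fold change -0.30, adjusted p = 0.00937). In bulk liver, fewer cells of a type and less RNA per cell cannot be told apart, and this holds for the receptors as well. The markers are known genes of the cell type, and their part in the result was not tested.

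FPKM is a level per length, so the receptors can be ordered by it. All 10 were above 0 in every mouse, and 10 of 10 averaged 1 FPKM or more. In the control group Rxra had the highest median at 59.9 FPKM, above 95.3% of all genes, and Esrra the lowest at 4.93, above 53.1%. Between them stood Nr1h4, Nr1h3, Ppara, Nr3c1, Nr5a2, Nr1i2, Nr0b2 and Nr1i3 in falling order, and in this group each of these overlapped the next in range, so that Rxra against Nr1h4 was the neighbouring pair whose ranges were apart. In the PZH group the order was Rxra, Nr1h4, Ppara, Nr1i2, Nr1h3, Nr3c1, Nr5a2, Nr1i3, Nr0b2 and Esrra. Here the ranges were apart between Ppara and Nr1i2, Nr1h3 and Nr3c1, Nr3c1 and Nr5a2, and Nr0b2 and Esrra, while Rxra (40.7 to 77.9 FPKM) overlapped Nr1h4 (46.7 to 64.2 FPKM).

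Of the 10 receptors, 5 were called in the comparison of the PZH with the control group (limma on log2(FPKM + 1), adjusted p under 0.05), beside 44.8% of all genes, so the number called was close to the background. The direction was uneven, since 5 were higher in the PZH group, where 12.7% of all genes were, and 0 were lower, where 32.1% of all genes were. Because the receptors were chosen with earlier results of these data known, this is a description and not a test. By limma 0 receptors were lower at an unadjusted p under 0.05. The 5 were Nr1h4, Nr1i2, Nr1i3, Ppara and Nr5a2. The criteria of the study for transcripts, a 2-fold change with P under 0.05, were applied here to gene FPKM with the unadjusted limma p. By these 1 receptor passed, Nr1i3, which was higher, beside 4.02% of all genes in either direction, 1.52% higher and 2.5% lower. Without control mouse 6 3 passed, and 2 did without PZH mouse 2 or 4 or without control mouse 2 or 4. The 6 PZH and 6 control mice did not overlap in 4 receptors, all higher in the PZH group, beside 6.46% of all genes without overlap and higher, 17.9% without overlap and lower, and 24.3% in either direction.

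**Figure D1:**
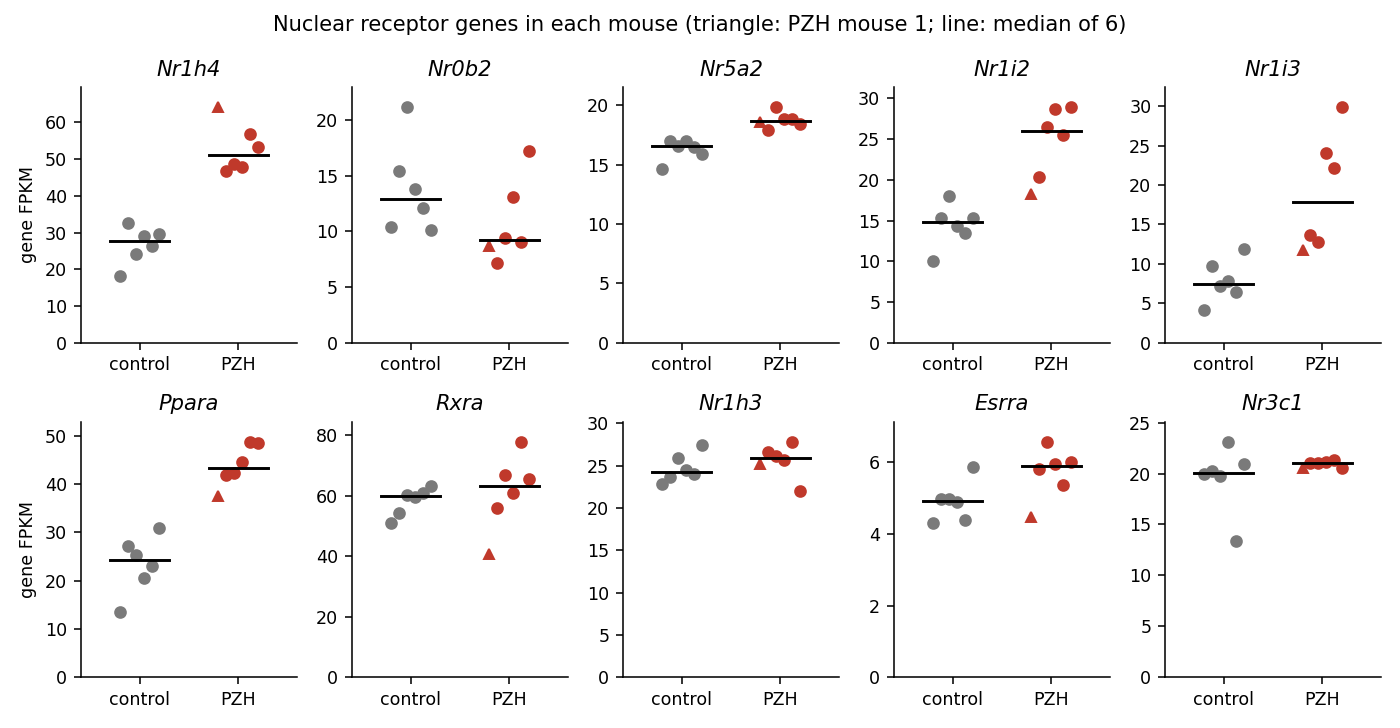
Gene FPKM (y axis, linear from 0) of each nuclear receptor in each mouse of the control group (grey) and the PZH group (red); each point is 1 mouse, the line is the median of 6 mice and the triangle is PZH mouse 1. Nr1h4 lies at 46.7 FPKM or above in the PZH mice and at 32.7 or below in the control mice, and PZH mouse 1 is the lowest PZH mouse for Nr1i2, Nr1i3, Ppara, Rxra and Esrra.

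These values hold for FPKM as deposited, in which the median log2 fold change of all genes was -0.11. Scaling each mouse by its median ratio to the others moved that median to -0.00104, and the genes called over the whole table from 1798 higher and 4560 lower to 2807 higher and 2739 lower. On that scale 7 receptors were called, all higher, with Nr1h3 (log2 fold change 0.23, limma adjusted p = 0.00783) and Esrra (0.34, adjusted p = 0.00444) added. With the GC correction 8 receptors were called, and the whole table gave 3814 genes higher and 2634 lower. The 5 receptors called on the deposited scale kept their call and their direction under both, and without PZH mouse 1 6 receptors were called, with Esrra added.

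The bile acid receptor Nr1h4 (chr10:89454234-89533585 on GRCm38) was at 46.7 to 64.2 FPKM in the PZH mice (median 51.1) and 18.2 to 32.7 in the control mice (median 27.8). Each of the 6 PZH mice lay above each control mouse, and PZH mouse 1 was the highest and control mouse 1 the lowest. The difference passed the test (log2 fold change 0.98, SE 0.128, limma adjusted p = 8.97e-05), and without PZH mouse 1 the log2 fold change was 0.92. Nr0b2, the corepressor SHP that FXR induces (chr4:133553376-133556536), was at 7.16 to 17.2 FPKM in the PZH mice (median 9.20) and 10.1 to 21.2 in the control mice (median 12.9). The groups overlapped, with 4 of 6 PZH mice under the lowest control mouse and PZH mice 4 and 6 within the control range. The difference did not pass the test (log2 fold change -0.35, SE 0.207, limma adjusted p = 0.194), and its 95% interval ran from -0.80 to 0.10. The log2 fold change was -0.17 after median-ratio scaling, -0.11 with the GC correction and -0.22 without control mouse 3, and was not called in any of these. Nr5a2, the partner of SHP in the control of bile acid synthesis (chr1:136842571-136960448), was at 17.9 to 19.9 FPKM in the PZH mice (median 18.7) and 14.7 to 17.04 in the control mice (median 16.5). Here the groups did not overlap and the spread within each was narrow, so that a small difference passed the test (log2 fold change 0.19, SE 0.0543, limma adjusted p = 0.0112). With the sum of FPKM set equal in every mouse this call was lost (0.15, adjusted p = 0.0577).

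Both receptors of foreign compounds were higher in the PZH group. Nr1i2 (chr16:38248323-38294824), which encodes PXR, was at 18.3 to 28.95 FPKM in the PZH mice (median 25.99) and 10.03 to 18.1 in the control mice (median 14.8). The groups did not overlap, although PZH mouse 1 lay just above the highest control mouse, and the difference passed the test (log2 fold change 0.74, SE 0.141, limma adjusted p = 0.00102). Nr1i3 (chr1:171213970-171220701), which encodes CAR, was at 11.8 to 29.9 FPKM in the PZH mice (median 17.9) and 4.17 to 11.9 in the control mice (median 7.51). The PZH mice separated into mice 1 to 3, with at most 13.7 FPKM, and mice 4 to 6, with at least 22.1, and 5 of 6 were above the highest control mouse. By gene FPKM this was the receptor that changed most (log2 fold change 1.15, SE 0.255, limma adjusted p = 0.00278), with a 95% interval of 0.60 to 1.70. With the most abundant transcript of each gene alone, Ppara changed more (log2 fold change 3.17, against 1.17 for Nr1i3). That Ppara value depends on the division of fragments among its transcripts, which was not tested. The value of Nr1i3 is uncertain for another reason, since 2160 of the 2980 bases of its most abundant listed transcript also lie in exons of Tomm40l, a gene of the opposite strand. The libraries were strand-specific, but whether strand was used in the assembly is not given in the sources used here, and without it fragments of both genes cannot be told apart. Tomm40l itself was at 4.19 to 8.11 FPKM in the PZH mice (median 5.34) and 3.16 to 5.16 in the control mice (median 3.83), with log2 fold change 0.43, SE 0.152, limma adjusted p = 0.0349.

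Ppara (chr15:85734983-85802819), the fatty acid receptor, was at 37.5 to 48.9 FPKM in the PZH mice (median 43.5) and 13.4 to 30.8 in the control mice (median 24.3). The groups did not overlap, and control mouse 1 was the lowest of all 12. The difference passed the test (log2 fold change 0.92, SE 0.159, limma adjusted p = 0.000534) with a 95% interval of 0.57 to 1.26. With the most abundant Ppara transcript alone the log2 fold change was 3.17 (limma adjusted p = 0.00368). In control mice 1, 3 and 6 this transcript was under 0.1 FPKM, while another with the same coding exons was at 8.36 to 21.7. Rxra (chr2:27676440-27762957), the shared partner of these receptors, was at 40.7 to 77.9 FPKM in the PZH mice (median 63.2) and 51.0 to 63.2 in the control mice (median 59.9). The control mice all fell inside the range of the PZH mice, whose ends were mice 1 and 5. No difference was called (log2 fold change 0.05, SE 0.127, limma adjusted p = 0.782; 95% interval -0.23 to 0.32). The size depended on single PZH mice, with a log2 fold change of 0.16 (adjusted p = 0.156) without mouse 1 and of -0.02 without mouse 5. The GC content of its leading transcript was 57.0%, and with the GC correction it was called (log2 fold change 0.29, limma adjusted p = 0.016).

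Nr1h3 (chr2:91184061-91202834), the oxysterol receptor LXRα, was at 22.1 to 27.9 FPKM in the PZH mice (median 25.96) and 22.9 to 27.4 in the control mice (median 24.3). The groups overlapped throughout, and no difference was called (log2 fold change 0.05, SE 0.0674, limma adjusted p = 0.613; 95% interval -0.10 to 0.19). Esrra (chr19:6910977-6921813), the least abundant of the receptors, was at 4.47 to 6.58 FPKM in the PZH mice (median 5.89) and 4.31 to 5.88 in the control mice (median 4.93). The PZH mice reached higher, with 3 of 6 above the highest control mouse, but PZH mouse 1 was among the lowest. With all mice no difference was called (log2 fold change 0.18, SE 0.0870, limma adjusted p = 0.108; 95% interval -0.01 to 0.37), whereas without PZH mouse 1 it passed (log2 fold change 0.24, limma adjusted p = 0.0211), as it did without control mouse 6 (adjusted p = 0.0499). Its GC content of 61.8% was the highest of the receptors. Nr3c1 (gene on chromosome 18), the glucocorticoid receptor, was at 20.5 to 21.3 FPKM in the PZH mice (median 21.04) and 13.4 to 23.1 in the control mice (median 20.1). The 6 PZH mice lay within a narrow band, and control mouse 5 was far below all others. No difference was called (log2 fold change 0.11, SE 0.102, limma adjusted p = 0.415; 95% interval -0.11 to 0.33), nor after median-ratio scaling (log2 fold change 0.29, adjusted p = 0.0502) or with the GC correction (0.22, adjusted p = 0.123).

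The deposited values are per transcript, and 6 of the 31 receptor transcripts were called, all higher in the PZH group, beside 5.73% of all transcripts called higher and 19.7% in either direction. After median-ratio scaling 9 were called, all higher, where 2564 of all transcripts were higher and 2490 lower. With the GC correction 12 were called, all higher, where 4159 of all transcripts were higher and 2349 lower. The 6 called as deposited were 2 of Nr1h4 and 1 each of Nr1i2, Nr1i3, Nr5a2 and Ppara, and 18 of the 31 averaged 1 FPKM or more. By the 2-fold criteria 3 were higher, beside 1.24% of all transcripts, and 1 was lower, beside 1.99% (3.23% in either direction). With these thresholds and a test not named in its methods, the study counts more upregulated than downregulated transcripts. Over all transcripts the balance by the 2-fold criteria depended on the scale. It was 372 higher and 594 lower as deposited, 549 and 386 after median-ratio scaling, and 602 and 353 with the GC correction. The groups did not overlap in 7 receptor transcripts that were higher, beside 3.41%, and in 0 that were lower, beside 8.58%. The 3 listed Ppara transcripts have the same coding exons and differ in their untranslated ends. Ppara-201 was at 24.8 to 35.1 FPKM in the PZH mice (median 28.4) and 0.0144 to 12.8 in the control mice (median 3.97). In each PZH mouse it was the main transcript, while 3 of 6 control mice, numbers 1, 3 and 6, had less than 0.1 FPKM of it. In these 3 mice Ppara-203 was at 10.04, 8.36 and 21.7 FPKM, whereas it did not exceed 0.680 in any of the other 9 mice. Ppara-202 was at 10.6 to 20.5 FPKM in the PZH mice (median 14.4) and 3.37 to 18.5 in the control mice (median 11.9), and the groups overlapped. How the assembler divided fragments among the Ppara transcripts was not tested.

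**Figure D2:**
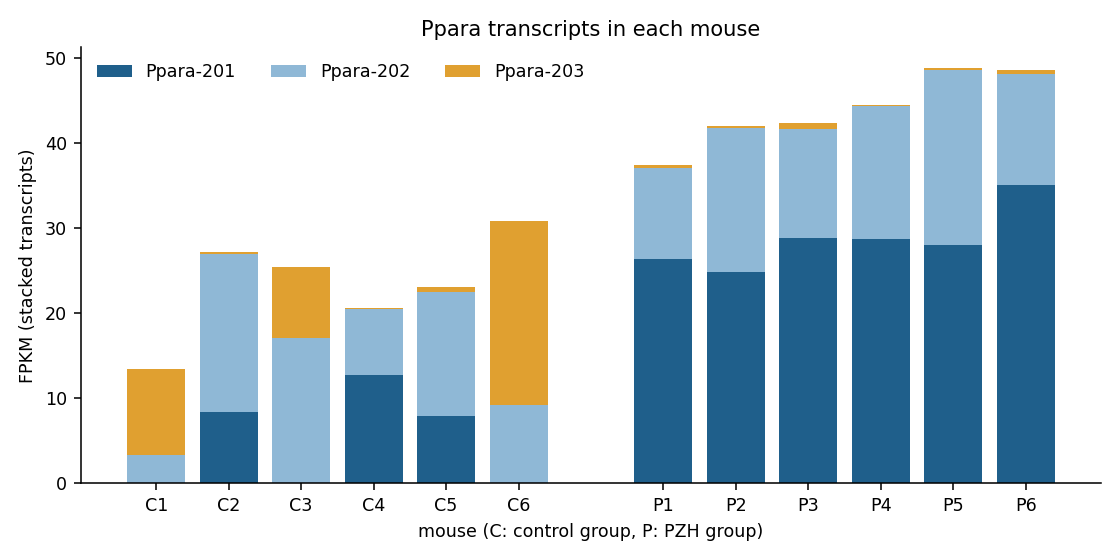
FPKM of the 3 listed Ppara transcripts (y axis, stacked from 0) in each of 6 control mice (C1 to C6) and 6 PZH mice (P1 to P6), so that the height of a bar is the gene FPKM. Ppara-201 makes up 57.5% to 72.2% of each PZH bar and is not visible in control mice 1, 3 and 6, where Ppara-203 appears.

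The share of Ppara-201 in the gene FPKM was 57.5% to 72.2% in the PZH group, against 0.0910% to 61.9% in the control group, with 1 control mouse, number 4, inside the PZH range (exact permutation test, p = 0.00649, adjusted p = 0.201 over 7319 genes). For Nr1h4, whose listed transcripts differ in their coding exons, the leading transcript was at 32.6 to 45.2 FPKM in the PZH mice (median 36.8) and 14.2 to 24.9 in the control mice (median 21.2). The next was at 13.6 to 18.7 FPKM in the PZH mice (median 14.01) and 3.71 to 7.77 in the control mice (median 5.90). Both rose, and the share of the leading transcript was lower, at 69.9% to 73.3% against 72.6% to 80.1% (exact permutation test, p = 0.00433, adjusted p = 0.17). Of the 7 receptors with more than 1 listed transcript, 0 passed the adjusted threshold for the share by the exact permutation test and 3 had an unadjusted p under 0.05, the last being Nr5a2 (p = 0.0173). Over all 7319 such genes 0% passed the adjusted threshold, and 890 genes had an unadjusted p under 0.05.

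In Nr3c1 and Nr1h3 the transcripts traded places between mice of both groups. The leading transcript made up 35.2% to 73.4% of Nr3c1 in the PZH group, against 14.8% to 78.8% in the control group, and a longer transcript with the same coding exons was the first or the next in all mice but control mouse 5. That mouse had 0.0386 FPKM of it and the lowest Nr3c1 level. The leading Nr1h3 transcript made up 34.9% to 65.8% and 33.4% to 48.5% of Nr1h3 in the PZH and control mice. These transcripts share most of their sequence, and the division of fragments among them by the assembler was not tested. The leading transcripts of Rxra (93.8% to 96.5% and 94.97% to 97.5%) and Nr1i3 (89.4% to 92.8% and 85.9% to 93.4%) held nearly all of their genes in every mouse.

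Genes known as targets of each receptor were taken from lists fixed with earlier results of these data known, as were the other lists below. They are given by their counts in the same fit, to be read beside 12.7% of all genes higher, 32.1% lower and a median of -0.11. Of 19 genes regulated by FXR, 10 were higher and 1 lower (9 and 1 without PZH mouse 1, 11 and 1 after median-ratio scaling, 12 and 1 with the GC correction), with a median log2 fold change of 0.28. This list holds both genes that FXR induces and genes that it represses, so these counts do not measure FXR activity. Cyp7a1, the rate-limiting enzyme of bile acid synthesis, which FXR and SHP repress, was at 35.5 to 155 FPKM in the PZH mice (median 45.7) and 0.0970 to 8.92 in the control mice (median 1.10). The groups did not overlap, and this was the largest change in any of the target lists (log2 fold change 4.54, adjusted p = 4.63e-05). The bile salt export pump Abcb11, which FXR induces, rose (medians of 164 and 56.5 FPKM in the PZH and control groups, log2 fold change 1.41, adjusted p = 2.84e-05). Slc10a1, an uptake carrier that is not put here among the induced genes, was also higher (medians of 161 and 53.8 FPKM, log2 fold change 1.51, adjusted p = 3.98e-05). The export carrier gene Slc51b was near 0, at 0.102 to 0.603 FPKM in the PZH mice and at most 0.0811 in the control mice, 4 of which were at 0 (limma adjusted p = 0.0341; not called without PZH mouse 3 or control mouse 1, 4, 5 or 6, adjusted p up to 0.0625). Its partner Slc51a did not pass the test (medians of 0.313 and 0.308 FPKM, log2 fold change -0.00202, adjusted p = 0.985).

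Of 12 measured genes regulated by LRH-1, which share Apoa1, Cyp7a1 and Cyp8b1 with the list of FXR, 4 were higher and 1 lower (2 and 0 without PZH mouse 1, 6 and 0 after median-ratio scaling, 6 and 0 with the GC correction), with a median log2 fold change of 0.20. Of these, 2 were called in all without PZH mouse 5 or control mouse 4, and 3 without PZH mouse 4 or 6 or control mouse 1, 5 or 6. Cyp8b1, which directs bile acid synthesis to cholic acid, was at 2.26 to 16.7 FPKM in the PZH mice (median 6.68) and 0.609 to 5.37 in the control mice (median 2.43). It passed the test with all mice (log2 fold change 1.25, adjusted p = 0.0293; not called without PZH mouse 1, 4 or 5 or control mouse 1, 4 or 5, adjusted p up to 0.0644). Slc2a2, the glucose transporter of hepatocytes, rose without overlap between the groups (medians of 87.3 and 21.6 FPKM, log2 fold change 2.19, adjusted p = 0.000134). Scarb1, the receptor of high-density lipoprotein, did not pass the test (medians of 39.9 and 44.8 FPKM, log2 fold change -0.35, adjusted p = 0.127).

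Among the target lists, that of CAR had the largest share of genes that rose. Of 17 measured genes induced by CAR, 12 were higher and 1 lower (11 and 1 without PZH mouse 1, 13 and 1 after median-ratio scaling, 13 and 1 with the GC correction), with a median log2 fold change of 0.84. Cyp2b10, the P450 used as the marker of CAR activity, was at 17.5 to 28.99 FPKM in the PZH mice (median 22.8) and 2.87 to 19.96 in the control mice (median 10.9), with overlap (log2 fold change 1.14, adjusted p = 0.0128). Cyp2b9 varied widely in both groups and did not pass the test (medians of 10.8 and 9.14 FPKM, log2 fold change 0.24, adjusted p = 0.823). The P450 genes Cyp2c29 (medians of 732 and 220.0 FPKM, log2 fold change 1.82, adjusted p = 0.000165) and Cyp2c55 (medians of 16.7 and 1.62 FPKM, log2 fold change 2.64, adjusted p = 1.56e-05) rose without overlap between the groups. Of 14 measured genes induced by PXR, 7 were higher and 2 lower (5 and 3 without PZH mouse 1, 7 and 2 after median-ratio scaling, 7 and 2 with the GC correction), with a median log2 fold change of 0.34, and Gsta1, Por and Alas1 stand in both lists. Without PZH mouse 4 or 5 or control mouse 1, 3 or 5, 5 were higher and 2 lower. Cyp3a11, the main P450 that PXR induces, was at 1338 to 3842 FPKM in the PZH mice (median 3242) and 1510.4 to 2578 in the control mice (median 2303). The groups overlapped, and the difference did not pass the test (log2 fold change 0.41, adjusted p = 0.18; called without PZH mouse 2, adjusted p = 0.00572; 95% interval -0.10 to 0.92). Among its relatives Cyp3a13 fell (log2 fold change -0.53, adjusted p = 0.00173) and Cyp3a25 rose (log2 fold change 0.78, adjusted p = 0.0181). The carrier gene Slco1a4 (medians of 32.4 and 6.96 FPKM, log2 fold change 2.06, adjusted p = 0.000413) and the aldehyde dehydrogenase gene Aldh1b1 (medians of 50.8 and 17.7 FPKM, log2 fold change 1.44, adjusted p = 0.000312) had the largest changes of the list.

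For Ppara, of 33 target genes 10 were higher and 5 lower (9 and 4 without PZH mouse 1, 13 and 4 after median-ratio scaling, 15 and 4 with the GC correction), with a median log2 fold change of 0.09. Without PZH mouse 6, control mouse 1 or control mouse 5, 5 were higher and 4 lower, 9 in all. With an equal sum of FPKM they were 6 and 5, so the balance of directions depended on the setting. Cyp4a14, a fatty acid hydroxylase strongly induced by PPARα, was at 31.6 to 150.2 FPKM in the PZH mice (median 67.8) and 33.5 to 958 in the control mice (median 119). The difference did not pass the test (log2 fold change -1.08, adjusted p = 0.212; 95% interval -2.54 to 0.37). Its relative Cyp4a10 did not pass it either (medians of 158 and 226 FPKM, log2 fold change -0.68, adjusted p = 0.249). Another relative, Cyp4a31, rose (medians of 23.8 and 9.60 FPKM, log2 fold change 1.03, adjusted p = 0.0127). Plin2, which coats lipid droplets, fell without overlap between the groups (medians of 113 and 491 FPKM, log2 fold change -1.99, adjusted p = 7.17e-06). Fgf21, a hormone secreted by the liver, fell as well (medians of 2.51 and 10.8 FPKM, log2 fold change -1.66, adjusted p = 0.00225).

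Of 18 genes induced by LXRα, 7 were higher and 2 lower (8 and 2 without PZH mouse 1, 10 and 0 after median-ratio scaling, 11 and 0 with the GC correction), with a median log2 fold change of 0.14. The cholesterol exporter Abca1 fell (log2 fold change -0.31, adjusted p = 0.0193), a call that was lost with the median-ratio scale (log2 fold change -0.12, adjusted p = 0.305). Abcg1, another exporter, rose (log2 fold change 0.33, adjusted p = 0.0338; not called without PZH mouse 2, 3 or 5 or control mouse 1, 2, 4 or 6, adjusted p up to 0.0741), and Abcg5 did not pass the test (medians of 15.6 and 13.4 FPKM, log2 fold change 0.15, adjusted p = 0.38). Mlxipl (ChREBP, medians of 64.0 and 25.9 FPKM, log2 fold change 1.12, adjusted p = 0.000417) and Srebf1 (SREBP-1, medians of 45.9 and 21.3 FPKM, log2 fold change 1.07, adjusted p = 0.000209), both regulators of lipogenesis, had the largest changes. Of 24 mitochondrial and related genes regulated by ERRα, 7 were higher and 1 lower (8 and 1 without PZH mouse 1, 11 and 0 after median-ratio scaling, 11 and 0 with the GC correction), with a median log2 fold change of 0.03. Without PZH mouse 6 or control mouse 2, 5 were called in all. Among those that rose were the coactivators Ppargc1a (log2 fold change 0.39, adjusted p = 0.0296; not called without PZH mouse 3, 4 or 6 or control mouse 1, 2, 3 or 6, adjusted p up to 0.0673) and Ppargc1b (medians of 2.51 and 0.706 FPKM, log2 fold change 0.84, adjusted p = 0.000832) and the citrate cycle subunit Idh3a (log2 fold change 0.45, adjusted p = 0.00634). Cycs, the electron carrier cytochrome c, did not pass the test (medians of 21.4 and 20.6 FPKM, log2 fold change 0.01, adjusted p = 0.928).

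Among the targets of the glucocorticoid receptor more were lower than higher, and of 22 genes 3 were higher and 11 lower (4 and 11 without PZH mouse 1, 5 and 9 after median-ratio scaling, 4 and 11 with the GC correction), with a median log2 fold change of -0.64. Both metallothioneins of the list, small metal-binding proteins, fell without overlap between the groups. Mt1 was at 46.5 to 87.5 FPKM in the PZH mice (median 62.4) and 204 to 901 in the control mice (median 604) (log2 fold change -2.88, adjusted p = 6.56e-05) and Mt2 had medians of 25.4 and 333 FPKM (log2 fold change -3.33, adjusted p = 3.71e-05). The amino acid enzyme Tdo2 rose (medians of 205 and 106 FPKM, log2 fold change 1.04, adjusted p = 0.000597). Neither Tat (medians of 322 and 242 FPKM, log2 fold change 0.32, adjusted p = 0.171) nor the gluconeogenic Pck1 (medians of 183 and 254 FPKM, log2 fold change -0.63, adjusted p = 0.269) passed the test. Several genes of this list, such as the acute-phase genes Saa1 and Lcn2, also answer to inflammatory signals.

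**Figure D3:**
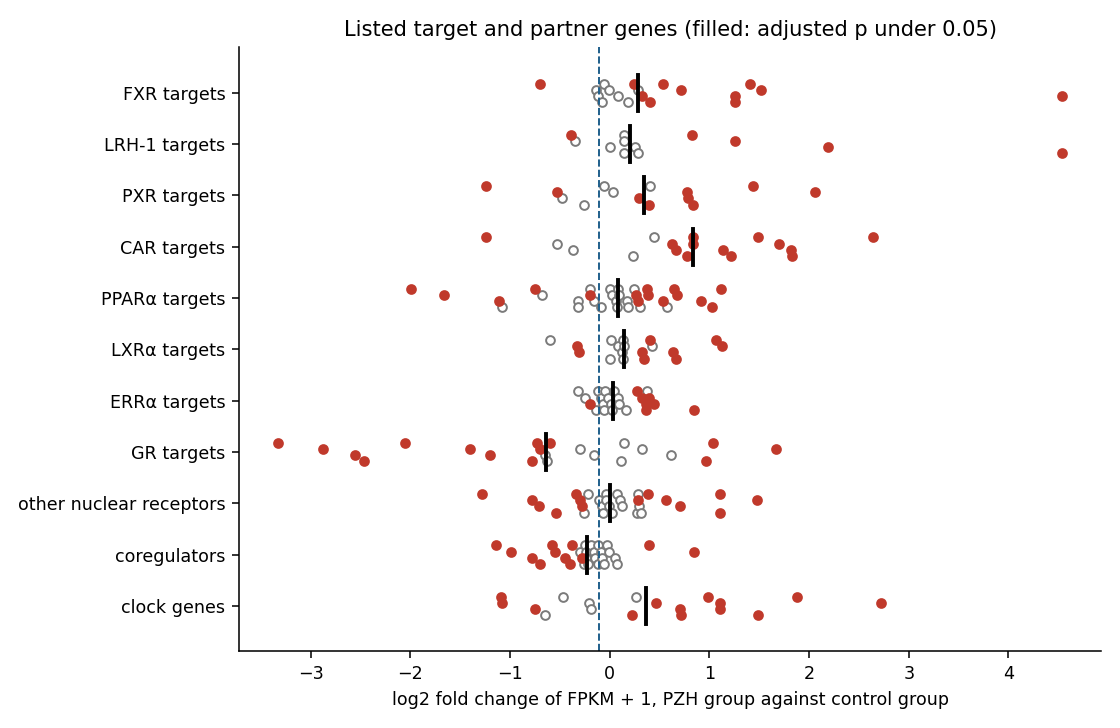
Log2 fold change of FPKM + 1 in the PZH group against the control group (x axis) of each measured gene of the lists of receptor targets, other nuclear receptors, coregulators and clock genes (rows); filled points passed the limma adjusted threshold, black bars are list medians and the dashed line is the median of all genes, -0.11. The list of CAR targets has the highest median, 0.84, and that of GR targets the lowest, -0.64.

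Whether mice with more of a receptor also had more of a target was examined within each group of 6 mice for 10 fixed pairs, 20 relations in all. Pearson's r on the log2(FPKM + 1) scale ran from -0.512 to 0.580 and was positive in 12 relations. By exact permutation over the 720 orders of 6 mice, 0 passed at an adjusted p under 0.05 and 0 at an unadjusted p under 0.05. The highest was Nr5a2 with Cyp8b1 in the control group (r = 0.580, exact permutation p = 0.218, adjusted p = 0.883; Spearman's rho = 0.429, exact permutation p = 0.419, n = 6 mice). It was 0.284 without the 2 mice farthest from the median of Nr5a2. Over the 20 relations, r without the 2 mice farthest in the receptor ran from -0.822 to 0.992, each of 4 mice. The upper end was that of Nr1i2 with Cyp3a11 in the PZH group, at 0.346 with all 6 mice. For Nr1h4 and Nr0b2, r was 0.196 in the control group (exact permutation p = 0.703) and -0.0476 in the PZH group (exact permutation p = 0.912). Without the 2 farthest mice of each group these were -0.822 and 0.846, each of 4 mice and of the other sign. For Nr0b2 and the Cyp7a1 it represses, r was 0.168 and -0.496 (exact permutation p = 0.736 and 0.312), and 0.800 and 0.203 without the 2 mice of each group farthest in Nr0b2.

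Of the other nuclear receptor genes of the mouse, 30 of 39 were in the table, and 7 were higher and 7 lower (9 and 6 without PZH mouse 1, 10 and 4 after median-ratio scaling, 12 and 4 with the GC correction), with a median log2 fold change of 0.01. Hnf4a was the most abundant, at 105 to 146 FPKM in the PZH mice (median 139) and 156 to 179 in the control mice (median 164), and fell on the deposited scale but not on the median-ratio scale (log2 fold change -0.11, adjusted p = 0.25). Rxrb, a relative of Rxra, had medians of 7.01 and 8.46 FPKM (log2 fold change -0.34, adjusted p = 0.0195) and likewise lost its call on that scale (adjusted p = 0.159). The third RXR gene, Rxrg, did not pass the test on the deposited scale (medians of 1.75 and 1.14 FPKM, log2 fold change 0.32, adjusted p = 0.0512; called without control mouse 2 or 3, adjusted p down to 0.0151). The largest change was that of Nr1h5, which encodes the lanosterol receptor FXRβ (1.96 to 3.30 FPKM in the PZH mice (median 2.64) and 0.0126 to 0.770 in the control mice (median 0.220); log2 fold change 1.48, adjusted p = 1.97e-05). The next was the immediate early gene Nr4a1 (0.330 to 0.685 FPKM in the PZH mice (median 0.533) and 1.02 to 7.36 in the control mice (median 2.60); log2 fold change -1.28, adjusted p = 0.00211). Neither overlapped between the groups.

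Of 30 coactivators, corepressors and chaperones of nuclear receptors, 2 were higher and 10 lower (2 and 11 without PZH mouse 1, 3 and 7 after median-ratio scaling, 5 and 7 with the GC correction), with a median log2 fold change of -0.23. The median after median-ratio scaling was -0.05. Ppargc1a and Ppargc1b, given above, were the 2 that rose, and 1 was higher without PZH mouse 3, 4 or 6 or control mouse 1, 2, 3 or 6. Their relative Pprc1 fell (medians of 2.68 and 7.83 FPKM, log2 fold change -1.14, adjusted p = 0.000473). So did the chaperone Hsp90aa1, which holds the glucocorticoid receptor ready for its ligand (medians of 46.3 and 106 FPKM, log2 fold change -0.99, adjusted p = 0.00024).

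Several receptor genes of the liver, Ppara among them, are known to follow the circadian clock, and of 18 genes of the clock and its output 10 were higher and 3 lower (10 and 4 without PZH mouse 1, 10 and 3 after median-ratio scaling, 11 and 3 with the GC correction), with a median log2 fold change of 0.36. Dbp, which encodes a transcription factor of clock output, was at 11.8 to 26.1 FPKM in the PZH mice (median 18.9) and 0.470 to 3.57 in the control mice (median 2.18), without overlap (log2 fold change 2.73, adjusted p = 2.24e-05). Per3 had medians of 6.78 and 1.08 FPKM (log2 fold change 1.88, adjusted p = 1.27e-05), and Arntl (BMAL1) fell (medians of 2.75 and 5.31 FPKM, log2 fold change -0.75, adjusted p = 0.00646). Its partner Clock (log2 fold change -0.19, adjusted p = 0.103; called without PZH mouse 1, adjusted p = 0.0260) and Npas2 (log2 fold change -0.47, adjusted p = 0.0777; called without control mouse 5 or 6, adjusted p down to 0.0279) did not pass the test with all mice. The hour at which each mouse was killed is not given in the sources used here, so hour and group cannot be told apart. The part of the clock genes in the receptor differences was not tested.

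Markers of other liver cells were counted in the same way. Kupffer cells and macrophages had 5 higher and 2 lower of 11 (7 and 1 after median-ratio scaling), with a summed level of 422 to 628 FPKM in the PZH mice (median 530.0) and 405 to 514 in the control mice (median 427). Their most abundant marker, Lyz2, had medians of 240.2 and 179 FPKM in the PZH and control groups, Adgre1 20.4 and 16.4, Clec4f 31.5 and 25.4 and Cd5l 75.5 and 73.6, of which Clec4f rose (log2 fold change 0.60, adjusted p = 0.0251; not called without PZH mouse 3, adjusted p = 0.0548). Stellate cells and myofibroblasts had 3 higher and 3 lower of 12 (6 and 3 after median-ratio scaling), with a summed level of 353 to 457 FPKM in the PZH mice (median 416) and 269 to 412 in the control mice (median 365). Dcn was their most abundant marker (medians of 178 and 168 FPKM), and of Col1a1 (22.5 and 21.8), Col1a2 (29.04 and 24.9) and Col3a1 (52.2 and 38.1) the last rose (log2 fold change 0.62, adjusted p = 0.0146). Sinusoidal endothelial cells had 0 higher and 2 lower of 8 (2 and 1 after median-ratio scaling), with a summed level of 94.4 to 124 FPKM in the PZH mice (median 107) and 108 to 121 in the control mice (median 112). Without PZH mouse 1, 4 were called, 2 higher and 2 lower. Clec4g was the most abundant (medians of 34.2 and 34.8 FPKM), with Stab2 at 15.4 and 14.04 and Lyve1 at 5.12 and 8.47, which fell (log2 fold change -0.62, adjusted p = 0.000634).

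Bile duct cells had 0 higher and 1 lower of 6 (1 and 1 after median-ratio scaling), with a summed level of 71.6 to 139.7 FPKM in the PZH mice (median 107) and 102 to 166 in the control mice (median 145). Spp1 was the most abundant (medians of 94.1 and 125 FPKM in the PZH and control groups), Krt19 had 2.51 and 3.06, Krt7 0.204 and 0.193 and Epcam 0.805 and 0.634, with Epcam listed at 0 in control mouse 3. Lymphocytes and neutrophils had 0 higher and 1 lower of 12 (0 and 1 after median-ratio scaling), with a summed level of 16.1 to 135 FPKM in the PZH mice (median 23.3) and 22.8 to 71.0 in the control mice (median 30.1), and 2 were called without PZH mouse 3. That mouse alone held the highest sum, the other 5 PZH mice having at most 25.5, and with the GC correction 2 were higher and 1 lower. S100a8 led (medians of 7.04 and 12.5 FPKM; called without PZH mouse 3, adjusted p = 0.0492), and Ptprc had 7.62 and 8.16, Cd3e 0.379 and 0.485 and Cd3g 0.260 and 0.336. Dividing cells had 5 higher and 0 lower of 7 (6 and 0 after median-ratio scaling), with a summed level of 23.5 to 55.2 FPKM in the PZH mice (median 30.3) and 25.2 to 29.7 in the control mice (median 26.7). The highest sum was that of PZH mouse 1, the next being 36.8, and without that mouse 5 were higher and 1 lower. Among genes averaging 1 FPKM or more, 3 were called, all higher. Pcna was the most abundant (medians of 15.9 and 20.8 FPKM; called without PZH mouse 1, adjusted p = 0.0126), and Mki67 (2.91 and 0.628; log2 fold change 1.29, adjusted p = 1.56e-05), Top2a (3.08 and 0.826; log2 fold change 1.20, adjusted p = 0.000134) and Ccnb1 (0.628 and 0.137; log2 fold change 0.60, adjusted p = 0.00249), which was at 0 in control mouse 1, rose. These too are known genes of each cell type, and their part in the result was not tested.

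The genes most like each receptor over the 12 mice were found among 6373 genes with a mean FPKM of at least 5, as those with the highest Pearson's r of log2(FPKM + 1) once the mean of each group had been removed. This is a description that picks the highest of many values. For the bile acid receptors they were Gins4 (r = 0.968) and Slco1b2 (0.949) for Nr1h4, Ypel2 (r = 0.939) and Acat3 (0.911) for Nr0b2 and Lrat (r = 0.910) and Glb1 (0.873) for Nr5a2. For the drug receptors they were Abhd15 (r = 0.957) and Pdk2 (0.943) for Nr1i2 and Ei24 (r = 0.911) and Hsd17b4 (0.910) for Nr1i3. Slco1b2 encodes an uptake carrier of the hepatocyte for bile acids and drugs, and Lrat the retinol-esterifying enzyme of stellate cells. Ppara was most like Pklr (r = 0.926) and Sord (0.904), of which Pklr encodes the pyruvate kinase of liver, Nr1h3 like Tsta3 (r = 0.913) and Pex16 (0.903) and Nr3c1 like Pigk (r = 0.917) and Ythdf3 (0.901). Rxra was most like Calcoco1 (r = 0.968) and Gigyf1 (0.964) and Esrra like Slc25a16 (r = 0.894) and AU022252 (0.888), and for these the values without PZH mouse 1 were lower, at 0.904 and 0.892 and at 0.813 and 0.793.

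Nr1h4, Nr1i2, Nr1i3, Nr5a2 and Ppara were each called higher in the PZH group as deposited. The 250 bases before their annotated starts were read from the RefSeq promoter table (GRCm38.p6), which held 9 of the 10 receptors. Both strands were searched for AGGTCA (the core motif of nuclear receptors, in 14.02% of the 32851 windows of this length), CACGTG (the E-box of clock and other factors, 6.02%), TTATGTAA (the D-box of clock output factors, 0.819%) and CAAAGGTCA (the core motif with CAA before it, 0.426%). Each match of the last is also a match of the first. Capitals mark the matches, which are descriptions and not sites.
Nr1h4, chr10:89506659-89506908, minus strand: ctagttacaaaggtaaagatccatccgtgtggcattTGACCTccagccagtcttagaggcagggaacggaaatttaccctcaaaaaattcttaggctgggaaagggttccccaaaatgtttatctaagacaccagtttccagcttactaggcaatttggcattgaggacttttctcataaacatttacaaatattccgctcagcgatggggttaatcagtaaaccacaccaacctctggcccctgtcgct
Nr1i2, chr16:38294825-38295074, minus strand: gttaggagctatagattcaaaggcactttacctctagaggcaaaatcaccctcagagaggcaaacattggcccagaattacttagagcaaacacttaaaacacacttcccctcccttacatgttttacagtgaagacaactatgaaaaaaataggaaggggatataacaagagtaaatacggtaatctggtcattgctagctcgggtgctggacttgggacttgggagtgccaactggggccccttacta
Nr1i3, chr1:171213720-171213969, plus strand: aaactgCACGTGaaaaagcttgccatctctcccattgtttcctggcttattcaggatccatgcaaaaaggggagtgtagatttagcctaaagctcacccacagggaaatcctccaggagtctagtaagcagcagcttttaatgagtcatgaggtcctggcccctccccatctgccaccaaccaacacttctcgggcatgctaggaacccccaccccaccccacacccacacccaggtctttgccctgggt
Nr5a2, chr1:136960449-136960698, minus strand: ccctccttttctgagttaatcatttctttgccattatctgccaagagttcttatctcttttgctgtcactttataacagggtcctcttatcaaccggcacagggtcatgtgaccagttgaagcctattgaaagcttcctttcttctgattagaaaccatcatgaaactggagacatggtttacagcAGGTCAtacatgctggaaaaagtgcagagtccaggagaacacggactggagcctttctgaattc

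The Nr1h4 window holds 1 match of AGGTCA, read as TGACCT on the printed strand, the Nr5a2 window holds 1 as AGGTCA, the Nr1i3 window holds 1 match of CACGTG, and the Nr1i2 window holds none of the 4 motifs. The same motifs also stand before receptors that were not called, with 2 matches of AGGTCA in 1 of the 2 Rxra entries and 1 of CACGTG in that of Nr0b2, and a second Nr5a2 entry holds none. The printed Nr1i2 and Nr5a2 windows end at the start of the leading transcript. The Nr1i3 window ends 16 bases before it, and the Nr1h4 window belongs to another transcript and lies 26927 bases from the start of the leading one, whose own start is not in the table. The entry of Ppara also held none of the motifs and is not printed, because 150 of its 250 bases lie in exons of other Ppara transcripts.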

How the data were processed

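The authors prepared strand-specific, ribosomal RNA-depleted libraries from the liver of each mouse, used Trimmomatic for trimming and HISAT2 2.1.0 for mapping to GRCm38, assembled transcripts with StringTie 1.3.5 and Ensembl release 95, and deposited, for 29883 protein-coding transcripts, the FPKM of each mouse. FPKM is scaled by length and by library and is not a read count. Few low values were whole multiples of the smallest step (2.85% to 3.68% per mouse within 0.01), so read counts could not be recovered, and intervals from counting are not given.

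Transcripts were assigned to genes by GENCODE M21, which held 29876 of them, and FPKM was summed per gene. Genes and transcripts were compared as log2(FPKM + 1) with limma 3.58.1 in R 4.3.3, with default variance moderation, no filter, and Benjamini-Hochberg adjustment over all genes or all transcripts; fold changes on this scale understate those of low genes. Single values per mouse were compared by two-sided exact permutation over the 924 labellings, which cannot give a p below 0.0022, and correlations by exact permutation. Other steps used matplotlib 3.10.9, scipy 1.17.1, Python 3.11.15, numpy 2.4.6 and pandas 2.3.3. The limma step was tested on simulated data, with normal values drawn independently for each gene and mouse. These held no GC trend and no mouse like PZH mouse 1, so that test does not bear on either.

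The receptors and gene lists were chosen with earlier results of these data known. Named genes are all 10 receptors, the first 3 measured genes of each list, the 2 called genes with the largest absolute log2 fold change of each list other than markers, the most abundant marker of each cell type, and for likeness 2 genes per receptor. Tomm40l was named for its overlap with Nr1i3, and a few other genes after their values were seen. Alternatives were an equal sum per mouse, a median-ratio factor, genes averaging 1 FPKM or more, a pseudocount of 0.1, no moderation, a mean-variance trend, the mouse number as a block, the most abundant transcript alone, each mouse left out, and a GC correction added after the data were seen. Longer motifs tried at first and then dropped matched no receptor window. The lncRNA table was not used here.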

Additional observations from a re-analysis of the deposited data

Results flagged for a closer look

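The Nr3c1 level of control mouse 5, 13.4 FPKM, lay far from those of the other 5 control mice, 19.7 to 23.1 FPKM. Its gap to the nearest of them was 0.706 of the whole range on the log2(FPKM + 1) scale, above the Dixon limit for 6 values. Of 50 groups of 6 values looked at, for the 10 receptors and their transcripts averaging 1 FPKM or more, 1 passed this limit, and chance alone passes it in about 1 of 20. Without this mouse the log2 fold change of Nr3c1 was 0.01 (limma adjusted p = 0.914).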

How the results depend on the processing

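Of 210 values of the receptors' log2 fold changes under other settings, 201 kept their direction and their side of the threshold, 1 lost its call (Nr5a2, equal sum), 7 gained a call (Rxra, Nr1h3 and Esrra) and 1 changed sign (Rxra without PZH mouse 5; with 1 mouse left out it ran from -0.0240 to 0.16). Receptors called numbered 5 to 6 with 1 mouse left out and 8 with the GC correction. Receptors past 2-fold numbered 1 as deposited, 2 with a pseudocount of 0.1, 3 with the median-ratio factor, 3 with the GC correction and 1 to 3 with 1 mouse left out. Receptor transcripts called numbered 6 to 7 with 1 mouse left out, 9 with the median-ratio factor and 12 with the GC correction. Over all transcripts 1712 were higher and 4186 lower as deposited. These were 2564 and 2490 with the median-ratio factor and 4159 and 2349 with the GC correction. With 1 mouse left out, the PPARα targets called numbered 9 to 17 (with all mice 15), the LRH-1 targets 2 to 6 (with all mice 5; 2 without variance moderation) and the ERRα targets 5 to 9 (with all mice 8). The lowest counts came without PZH mouse 6 or control mice 1 or 5 for PPARα, without PZH mice 1 or 5 or control mouse 4 for LRH-1, and without PZH mouse 6 or control mouse 2 for ERRα. The difference in the share of the leading Nr3c1 transcript, 0.172 percentage points, ran from -8.08 to 4.72 with 1 mouse left out and so had no stable sign. The causes were not tested.

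The groups share mouse numbers, but nothing ties mice of the same number, and the correlation of their deviations from the group means was -0.0784 to 0.0929 over genes for the 6 pairs. With the mouse number as a replicate block, 5982 genes were called in place of 6358, 5 receptors in place of 5, and 5 ERRα targets in place of 8.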
